A study of Mus musculus with 4 samples.

Results

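The Foxo factors and antioxidant enzymes are 10 genes, taken by name and found as 10 of the 23906 gene symbols in the expression files: *Foxo1*, *Foxo3*, *Sod1*, *Sod2*, *Cat*, *Gpx1*, *Prdx1*, *Prdx2*, *Txn1* and *Txnip*. The rule uses no measured value, but the list was drawn up with earlier results of these data known. All 10 passed the filter on low values used below, a mean of at least 1 FPKM (a read level corrected for transcript length and for the size of the library) over the libraries. *Foxo1* passed it through 1 library alone.

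RNA was sequenced from LSK-SLAM cells, which are lineage-negative, Sca1+ and cKit+ cells with the CD150+ CD48- surface profile that enriches for haematopoietic stem cells (HSCs). The cells came from *BRE-GFP* transgenic mice on a C57BL/6 background, in which a BMP-responsive element drives GFP, so that GFP reports current rather than earlier BMP signalling. The study kept separately derived lines of this transgene and shows data from its first. It mated heterozygous males of the line with wild-type females, and does not state the zygosity of the animals behind these libraries. There were 4 libraries in 4 groups, 1 from the BMP-activated, GFP+ fraction and 1 from the GFP- fraction of each tissue, the fetal liver (FL) at embryonic day 14 and adult bone marrow (BM). All groups carry the transgene and none was treated. The age of the adult animals behind these libraries and the number of embryos or mice pooled are not given in the sources used here. With 1 library per group, no difference between single libraries has a replicate check, and the spread between animals is unknown. A ratio between 2 libraries was called when it was past 2-fold in FPKM, with no p-value.

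HSCs in the adult marrow are mostly quiescent and are sensitive to reactive oxygen species. Foxo transcription factors act downstream of PI3K and Akt: when Akt is active it phosphorylates them and they leave the nucleus, and when Akt is quiet they enter it and switch on genes of cell cycle arrest and of oxidant defence, among them *Sod2* and *Cat*. Superoxide dismutases turn superoxide into hydrogen peroxide, which catalase, glutathione peroxidases and peroxiredoxins then remove. Thioredoxin gives peroxiredoxins their electrons back, and Txnip binds and inhibits thioredoxin. Foxo activity is set largely by where the protein is in the cell, which an RNA level does not show.

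The libraries differed in ways that bear on every gene below. The library labelled BM GFP+ carried the highest levels of most mature cell markers: the summed FPKM of the neutrophil list (10 of 10 genes in the files) was 588 (GFP+) and 310 (GFP-) for the FL and 64056 and 17786 for the BM, and that of the erythroid list (10 of 11) was 1046, 924, 20489 and 2910. The macrophage list summed to between 241 and 4887 and the B cell list to between 43.5 and 3493, each highest in BM GFP+. The megakaryocyte list was highest in BM GFP- (451 FPKM, against 365 in BM GFP+). The hepatocyte list (7 of 7) was highest in FL GFP+, at 418 FPKM against 53.7 to 79.8 in the other libraries. Of 10 stem cell and sort genes, 8 were past 2-fold lower in BM GFP+ than in BM GFP- (all genes 19%), among them *Kit* (22.2 against 76.6 FPKM) and *Procr* (listed at 0 against 60.8). *Cd48*, the surface marker that the gate excludes, stood at 267 against 126 FPKM, and *Ly6a*, the gene of Sca1, at 286 against 146. The summed FPKM of this list was 641 in BM GFP+ and 652 in BM GFP-. Between the FL fractions the lists were mixed: in GFP+ cells 4 of 10 neutrophil genes were past 2-fold higher and 4 lower (all genes 17.1% and 23.8%), and 5 of 10 macrophage genes higher and 4 lower, the latter including *C1qa* and *Marco*, both listed at 0 (*Marco* also in BM GFP+). Of the genes with at least 10 FPKM in each of the other 3 libraries, 1.97% were under 1 FPKM in FL GFP+ and 0.806% in BM GFP+, against 0.245% in FL GFP- and 0.0612% in BM GFP-. Fetal regulators summed to 535 and 177 FPKM in the FL libraries and to 6.99 and 6.81 in the BM libraries, as the tissue labels say. *Id1*, a BMP target looked at after its values were seen, was higher in GFP+ cells of both tissues (109 against 56.5 FPKM in the FL, 70.4 against 17.5 in the BM). The files hold no row for the transgene, so the direction of each GFP contrast rests on the labels. Of the genes given here only *Id1* bears on which fraction a library is. The paper reports *Bmpr* genes in GFP+ cells but not in GFP- cells, and higher *Ikzf1*, *Tcf3* and *Flt3* in GFP+ cells of the BM. The values of those genes are not reported here. It is not certain that each library carries the right fraction label, and an exchange would invert every GFP+ against GFP- ratio given here. In such bulk libraries, fewer cells of a type and less RNA per cell cannot be told apart. How far the other cell types account for any member's level was not tested.

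**Figure D1:**
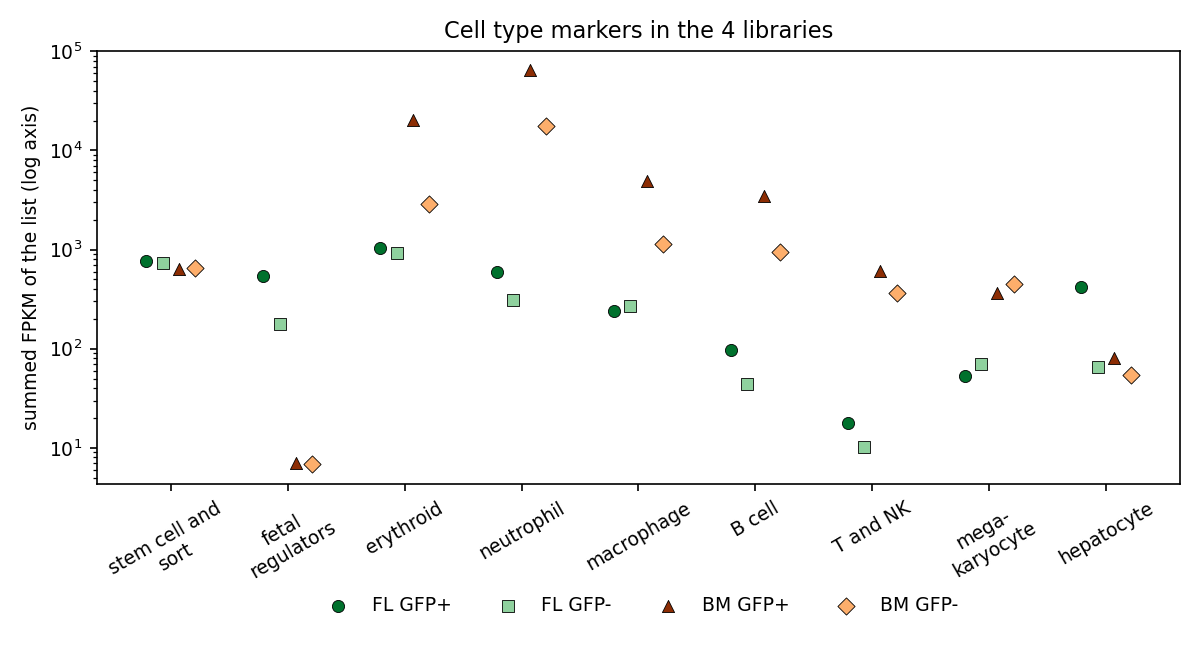
Summed FPKM (log axis) of 9 lists of cell type markers in each of the 4 libraries, 1 point per library. The triangles of BM GFP+ lie highest for the erythroid, neutrophil, macrophage, B cell and T and NK cell lists, and the fetal regulators separate the FL libraries (535 and 177) from the BM libraries (6.99 and 6.81).

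Across the 4 libraries the 10 genes fell into tiers of level that hardly crossed. *Gpx1* was the most abundant member in every library, and *Prdx2* and *Sod1* followed. *Prdx1*, *Txnip* and *Txn1* made a middle tier, *Cat* and *Sod2* a lower one, and the Foxo factors were the least abundant, *Foxo1* last in every library. Ordered by the median of the 4 FPKM values, the ranges of neighbours overlapped between *Prdx2* and *Sod1*, between *Prdx1* and *Txnip*, between *Txnip* and *Txn1* and between *Cat* and *Sod2*, so that these neighbours were not separated. The ranges of the other neighbours were apart. *Gpx1* stood at the 99.8th percentile of the 12022 genes past the filter in FL GFP+ cells, and *Foxo1* at the 34.9th there and, at its lowest, at the 7.16th in BM GFP-.

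**Figure D2:**
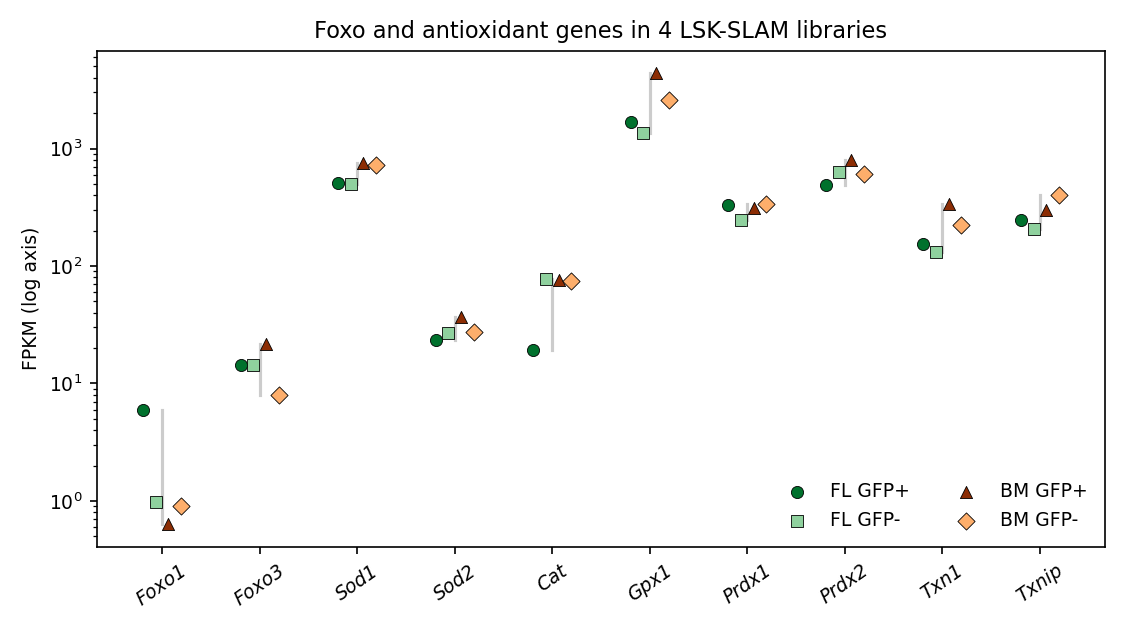
FPKM (log axis) of the 10 genes in the 4 libraries, 1 symbol per library, with a grey line from the lowest to the highest. *Sod1*, *Sod2*, *Prdx1*, *Prdx2* and *Txnip* span less than 2-fold, *Cat* is low in FL GFP+ alone (19.3 against 74.4 to 77.8) and *Foxo1* is high in FL GFP+ alone (5.96 against 0.636 to 0.982).

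Over all 4 libraries 5 of the 10 genes stayed within 2-fold, against 22.1% of the 12022 genes that passed the filter and 33.3% of those with a mean of at least 10 FPKM. *Foxo1*, with a mean of 2.12 FPKM, is not among the latter, here or below. The 5 were *Prdx1* (highest over lowest 1.36), *Sod1* (1.51), *Sod2* (1.58), *Prdx2* (1.65) and *Txnip* (1.96). Past 2-fold were *Txn1* (2.58), *Foxo3* (2.73) and *Gpx1* (3.24), and *Cat* (4.04) and *Foxo1* (9.37) lay furthest out. Leaving out BM GFP+ brought the number within 2-fold to 8 (all genes 37.1%) and leaving out FL GFP+ to 7 (38.5%), whereas without FL GFP- it was 5 (30.8%) and without BM GFP- 6 (29%). These alternatives were chosen after seeing the data. With the libraries rescaled to equal FPKM totals, 7 stayed within 2-fold.

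*Foxo1* (Ensembl gene ENSMUSG00000044167, chromosome 3 of NCBI37/mm9, 52072259 to 52154031, plus strand) encodes a Foxo factor that in the blood lineage is best known for its roles in lymphocytes. The FL libraries gave 5.96 (GFP+) and 0.982 (GFP-) FPKM and the BM libraries 0.636 and 0.907. Only FL GFP+ stood apart, and the other 3 libraries were under 1 FPKM, so the gene passed the filter through FL GFP+ alone. The level in FL GFP+ was 6.07-fold that in FL GFP- (1.81 on the log2(FPKM + 1) scale) and 9.37-fold that in BM GFP+ (2.09). With a pseudocount of 0.1 in place of 1 these log2 differences were 2.49 and 3.04. The annotation places a transcript on the opposite strand over 1001 bases of the gene, and the SMARTer libraries do not mark strand, so reads of both cannot be told apart.

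*Foxo3* (ENSMUSG00000048756, chromosome 10, 41901647 to 41996561, minus strand) encodes the Foxo factor best known for keeping adult HSCs quiescent. FPKM reached 14.4 (GFP+) and 14.3 (GFP-) for the FL, 21.6 and 7.91 for the BM. The FL libraries were within 1.01-fold of each other, and the BM libraries lay on either side of them. The BM GFP+ level was 2.73-fold the BM GFP- level (1.34 on the log2 scale), a ratio of 1.99 after rescaling to equal FPKM totals, 2.54 with equal upper quartiles and 2.65 by median of ratios. BM GFP+ was also the library with the high mature cell markers listed above. Without it the gene spanned 1.83-fold. Of the other members of the family, *Foxo4* was between 0.166 and 0.875 FPKM and *Foxo6* was listed at 0 in every library.

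*Sod1* (ENSMUSG00000022982, chromosome 16, 90220987 to 90226567, plus strand) encodes the cytosolic copper and zinc superoxide dismutase. Levels were 509.96 FPKM (GFP+) and 501.4 (GFP-) for the FL, against 757 and 729 for the BM. The fractions of each tissue were within 1.04-fold of each other and both BM libraries lay above both FL libraries. The order of the tissues depends on the scaling, since equal FPKM totals turned FL against BM in GFP+ cells from a ratio of 0.67 to 1.04, and they took BM GFP+ against GFP- from 1.04 to 0.76. *Sod2* (ENSMUSG00000006818, chromosome 17, 13200705 to 13210985, plus strand) encodes the mitochondrial manganese enzyme, a textbook Foxo3 target. Its FPKM was 23.3, 26.8, 37.0 and 27.5 in the same order. The highest value, in BM GFP+ cells, was 1.34-fold the next. *Sod3*, the extracellular enzyme, was listed at 0 in 3 libraries and was 0.0546 FPKM in FL GFP+.

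*Cat* (ENSMUSG00000027187, chromosome 2, 103294006 to 103325317, minus strand) encodes catalase, the peroxisomal enzyme that splits hydrogen peroxide into water and oxygen and that red cells hold in large amounts. The FL libraries gave 19.3 (GFP+) and 77.8 (GFP-) FPKM and the BM libraries 76.0 and 74.4. As deposited, the last 3 agreed within 1.05-fold, and FL GFP+ was 3.86-fold below the lowest of them. *Cat* was thus 4.04-fold lower in GFP+ than in GFP- cells of the FL (-1.96 on the log2 scale) and 1.02-fold higher in those of the BM. The agreement depends on the scaling. With equal FPKM totals the ratio was 0.74 for BM GFP+ against GFP- and 1.41 for FL against BM in GFP- cells. FL GFP+ was then 4.83-fold below FL GFP- and 2.55-fold below BM GFP+. Summed erythroid markers of the libraries other than FL GFP+ ran from 924 to 20489 FPKM, and their part in the *Cat* level was not tested. FL GFP+ was also the library with the most genes (101 of 5126) that had at least 10 FPKM in each of the others and under 1 in it, and the highest in hepatocyte markers, whose part in the low *Cat* value was not tested.

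*Gpx1* (ENSMUSG00000063856, chromosome 9, 108241607 to 108242671, plus strand) encodes the major cytosolic glutathione peroxidase. FPKM reached 1697 (GFP+) and 1348 (GFP-) for the FL, 4369.8 and 2613 for the BM. Both BM libraries lay above both FL libraries, and the ranges of the tissues did not overlap. The GFP+ level was higher in either tissue, by 1.26-fold in the FL and 1.67-fold in the BM, both within 2-fold. FL was 2.57-fold below BM in GFP+ cells and 1.94-fold below it in GFP- cells. Equal FPKM totals made these 1.66-fold and 1.44-fold.

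*Prdx1* (ENSMUSG00000028691, chromosome 4, 116358149 to 116373427, plus strand) encodes a cytosolic peroxiredoxin. Levels were 331 FPKM (GFP+) and 246 (GFP-) for the FL, against 309.8 and 335 for the BM. It was the steadiest of the 10 genes over these libraries as deposited, a rank that depends on the scaling. With equal FPKM totals the ratio of FL to BM in GFP+ cells was 1.66 for *Prdx1* and 1.04 for *Sod1*. *Prdx2* (ENSMUSG00000005161, chromosome 8, 87493486 to 87498733, plus strand) encodes the peroxiredoxin that is most abundant in red cells. Its FPKM was 488, 636, 804 and 604 in the same order. It was 1.30-fold lower in GFP+ than in GFP- cells of the FL and 1.33-fold higher in those of the BM. Summed erythroid markers of the BM fractions were 20489 (GFP+) and 2910 FPKM (GFP-), and their part in the *Prdx2* level was not tested. The annotation lets 181 bases of *Prdx2* overlap *Rnaseh2a* on the opposite strand, which had 24.3 to 40.6 FPKM.

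*Txn1* (ENSMUSG00000028367, chromosome 4, 57956245 to 57969283, minus strand) encodes cytosolic thioredoxin. The FL libraries gave 155 (GFP+) and 132 (GFP-) FPKM and the BM libraries 340.2 and 224. As for *Gpx1*, both BM libraries lay above both FL libraries. FL was 2.19-fold below BM in GFP+ cells and 1.70-fold below it in GFP- cells, and equal FPKM totals made these 1.42-fold and 1.26-fold. *Txnip* (ENSMUSG00000038393, chromosome 3, 96361880 to 96365806, plus strand) encodes the thioredoxin-binding protein, which also limits glucose uptake. Its FPKM was 247, 205, 302 and 401 in the same order. The BM libraries again lay above those of the FL, here with the highest value in GFP- cells, but with equal FPKM totals FL was 1.27-fold above BM in GFP+ cells. *Gm15441*, a non-coding gene on the opposite strand, covers all of *Txnip* in the annotation and was given 1.62 to 3.85 FPKM, although without strand the reads of both cannot be told apart.

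Near-identical copies without introns can take or lend reads. A search of NCBI37/mm9 for stretches that hold at least 80% of a coding sequence at 90% identity found 1 such copy each of *Sod1* (97.8% identical, chromosome 6), *Prdx1* (97.5%, chromosome 16), *Prdx2* (96.3%, chromosome 1) and *Txn1* (95.6%, chromosome 1), and none of the other 6 genes. The levels of these 4 genes are uncertain to the extent that the authors' correction for multiply mapped reads shared them wrongly.

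The 250 bases before the annotated start of each gene (RefSeq, GRCm38.p6, 1 promoter for each of the 10 genes) were searched on both strands for TGACNNNGC, the core of the antioxidant response element that Nrf2 binds, GTAAACA, a Foxo binding motif, and CACGTG, the E-box. Of 32851 promoters in the table, 10.2% hold the first, 3.17% the second and 6.02% the third. Among the 10 genes 2 hold the first, 1 the second and none the third, and no match overlaps another. They are shown with the surrounding bases, along the strand of the gene and with the match in capitals, because they are the only matches of the 10 genes. *Prdx1*, *Sod1* and *Txnip*, which carry them, were within 2-fold over the 4 libraries. A match describes the letters and shows no binding. In *Prdx1* and *Sod1* the match is on the opposite strand and reads as its reverse complement.
Prdx1, chr4:116685426-116685514, match starting 133 bases before the gene: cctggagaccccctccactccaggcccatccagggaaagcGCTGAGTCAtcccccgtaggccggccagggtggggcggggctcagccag
Sod1, chr16:90220666-90220754, match starting 56 bases before the gene: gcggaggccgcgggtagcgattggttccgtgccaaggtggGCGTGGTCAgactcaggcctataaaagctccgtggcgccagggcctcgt
Txnip, chr3:96557796-96557882, match starting 121 bases before the gene: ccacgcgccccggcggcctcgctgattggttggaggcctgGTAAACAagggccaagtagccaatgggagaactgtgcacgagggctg

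The study asked how BMP-activated and non-BMP-activated HSCs differ in their genetic programmes. In the FL, *Foxo1* was past 2-fold higher and *Cat* past 2-fold lower in GFP+ cells, and the other 8 genes were within 2-fold. This is 2 of 10, against 40.9% of all genes tested past 2-fold either way and 26.1% of those with a mean of at least 10 FPKM. The filter admits *Foxo1* only through the FL GFP+ value that also gives this call. Nearest to the limit inside it were *Prdx1* (331 against 246 FPKM, 1.35-fold higher) and *Prdx2* (488 against 636 FPKM, 1.30-fold lower). The median log2 difference of the 10 genes was 0.13, beside 0.04 for all genes. Equal FPKM totals turned both medians negative (-0.13 and -0.12) and changed neither call.

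In the BM, *Foxo3* alone was past 2-fold, higher in GFP+ cells, and the other 9 genes were within 2-fold. This is 1 of 10, against 38.2% of all genes tested and 24.8% of those with a mean of at least 10 FPKM. *Gpx1* and *Txn1* came next, 1.67-fold and 1.52-fold higher in GFP+ cells. The median log2 difference of the 10 genes was 0.23, beside 0.09 for all genes. With equal FPKM totals the medians were -0.21 and -0.30 and no member was past 2-fold.

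Between tissues, GFP+ cells of the FL and BM differed past 2-fold in 4 of the 10 genes. *Foxo1* was higher in the FL by 9.37-fold, and *Cat* (3.95-fold), *Gpx1* (2.57-fold) and *Txn1* (2.19-fold) were lower. Among all genes tested 55.8% were past 2-fold in this comparison, and 44.4% of those with a mean of at least 10 FPKM. It shares its libraries with both GFP contrasts, so the *Foxo1* and *Cat* values of FL GFP+ enter here again. Equal FPKM totals left 2 of the 4, *Foxo1* (14.5-fold) and *Cat* (2.55-fold).

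In GFP- cells no member was past 2-fold between the tissues, against 34.2% of all genes tested and 23.5% of those with a mean of at least 10 FPKM. Nearest to the limit were *Txnip* (205 against 401 FPKM, 1.96-fold lower in the FL), *Gpx1* (1.94-fold lower) and *Foxo3* (14.3 against 7.91 FPKM, 1.81-fold higher). *Foxo3* passed it in each of 3 rescalings, with 2.44-fold for equal FPKM totals, 2.04-fold for equal upper quartiles and 2.13-fold by median of ratios. As deposited, *Cat*, *Sod2*, *Prdx2* and *Foxo1* were within 1.09-fold between the tissues in GFP- cells. With equal FPKM totals they were 1.41-fold, 1.31-fold, 1.42-fold and 1.46-fold higher in the FL.

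**Figure D3:**
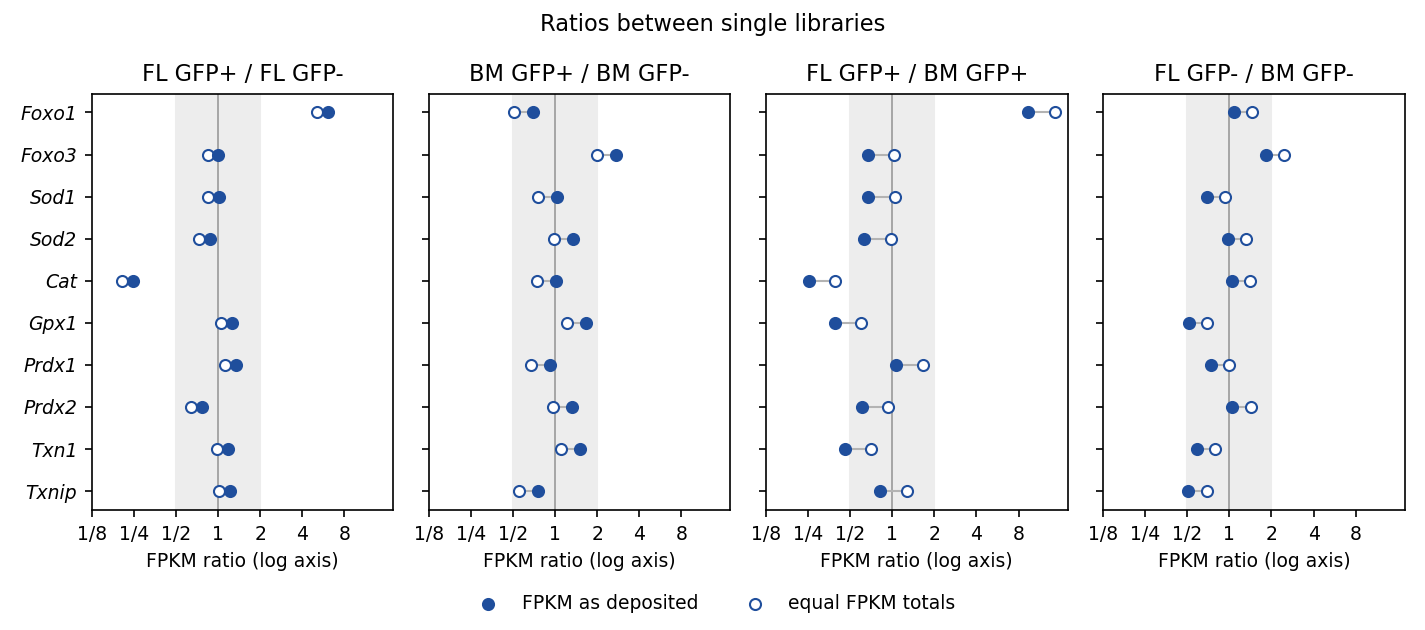
FPKM ratio (log axis) of each of the 10 genes between single libraries, filled circles as deposited and open circles after rescaling to equal FPKM totals, with the grey band marking less than 2-fold. *Foxo1* and *Cat* lie outside the band in both comparisons that use FL GFP+, *Foxo3* in BM GFP+ against GFP-, and no filled circle does in FL GFP- against BM GFP-.

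The scaling matters for such counts. Over all genes, equal FPKM totals moved the share of calls that were higher in the first group from 41.8% to 31.2% for the FL and from 50.3% to 28.4% for the BM in GFP+ against GFP-, and from 43.6% to 61.5% in GFP+ cells and from 47.0% to 68.4% in GFP- cells for FL against BM. Median log2 differences of all genes under equal totals were -0.12, -0.30, 0.39 and 0.32, against 0.04, 0.09, -0.08 and -0.06 as deposited. The FPKM sum was lowest in FL GFP- (541453) and highest in BM GFP+. Relative to all genes, *Gpx1* and *Txn1* were lower in the FL on either scale.

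The test across all genes was limma on log2(FPKM + 1) with tissue and GFP fraction as terms, which left 1 residual degree of freedom and asked for a difference that is alike in both tissues or in both fractions. For the GFP fraction none of the 10 genes had an adjusted p under 0.05, nor an unadjusted one, against 0.133% (adjusted) and 5.19% (unadjusted) of all genes tested. The smallest adjusted p was that of *Gpx1*, 0.977 (log2 difference 0.54, SE 0.29), higher in GFP+ cells of 2 of 2 tissues. For *Cat* the test gave -0.97 (SE 0.52, adjusted p = 0.983), over differences of -1.96 in the FL and 0.03 in the BM. For tissue, again no member passed, against 2.6% of all genes, and 2 had an unadjusted p under 0.05, against 15.6%. *Gpx1* was lower in the FL by a log2 difference of -1.16 (SE 0.29, limma adjusted p = 0.0757) and *Txn1* by -0.94 (SE 0.32, limma adjusted p = 0.194), each lower in 2 of 2 fractions. Among genes with a mean of at least 10 FPKM alone, the adjusted p of *Gpx1* was 0.00657, whereas over its other alternatives it was 0.112 or higher.

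A list of 101 further genes of the same pathway, of which 92 passed the filter, was set beside the members. It was drawn from textbook knowledge with earlier results of these data known. In the FL 12 of them were past 2-fold higher and 24 lower in GFP+ cells (all genes 17.1% and 23.8%), in the BM 25 higher and 8 lower (19.2% and 19%). Between the tissues 17 were higher and 45 lower in the FL in GFP+ cells (24.3% and 31.5%), and 9 and 26 in GFP- cells (16.1% and 18.1%). The median log2 differences were 0.13, 0.29, -0.78 and -0.37 in this order.

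By role, the 23 textbook Foxo targets, members left out, had 6 higher and 7 lower in GFP+ cells of the FL (all genes 17.1% and 23.8%). In those of the BM 10 were higher and 2 lower (19.2% and 19%). As deposited, *Ccng2*, an atypical cyclin of arrested cells, was past 2-fold higher in GFP+ cells of both tissues. It had 15.8 against 7.72 FPKM in the FL and 15.8 against 2.22 in the BM. The FL ratio of *Ccng2*, 2.05, was near the limit. Rescaling to equal FPKM totals, to equal upper quartiles or by median of ratios would take it below 2-fold. The BM ratio, 7.10, would stay past 2-fold under each of these. Targets with a mean of at least 5 FPKM that were past 2-fold higher in the FL in both fractions were *Sesn1* (GFP+ first, 185 and 222 FPKM for the FL, 78.4 and 58.3 for the BM), a sestrin, and *Cdkn1c* (16.1 and 14.2, 7.14 and 6.17), the cyclin-dependent kinase inhibitor p57. Those past 2-fold lower in the FL in both fractions included *Klf2* (GFP+ first, listed at 0 and 0.749 FPKM for the FL, 127 and 32.3 for the BM), a factor of lymphocyte quiescence and trafficking, and *Il7r* (listed at 0 and 0.0996, 20.6 and 4.64), a receptor of lymphoid progenitors. The B cell and neutrophil marker sums given above were highest in the same BM libraries.

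Upstream of the Foxo factors, 14 of 18 listed genes, the PI3K-Akt arm and the other family members, passed the filter. In GFP+ cells 0 were higher and 4 lower in the FL (all genes 17.1% and 23.8%), and 1 higher and 2 lower in the BM (19.2% and 19%). *Pik3r1*, the regulatory subunit of PI3K, was higher in the FL in both fractions (37.7 and 30.5 FPKM, against 9.10 and 14.2 in the BM).

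Of 11 other peroxiredoxin and thioredoxin genes, 0 were higher and 2 lower in GFP+ cells of the BM (all genes 19.2% and 19%). In those of the FL 1 was higher and 3 lower (17.1% and 23.8%). The 3 include the thioredoxin reductases *Txnrd2* (0.448 FPKM in FL GFP+, 23.6, 16.9 and 22.8 in FL GFP-, BM GFP+ and BM GFP-) and *Txnrd3* (0.0397, then 12.3, 22.1 and 19.1), and *Sesn2* (listed at 0, then 8.37, 13.0 and 15.4), named after their values were seen. Like *Cat*, these were low in FL GFP+ alone. Counted over the pathway, 20 of 92 genes were past 2-fold below each of the other libraries in FL GFP+, against 16.1% of all genes tested, and 2 were past 2-fold above them, against 8.08%. The 2 were *Keap1* (107 FPKM against 28.8 to 35.3), which holds Nrf2 in check, and *Nox1* (4.96 against 1.13 to 1.48). BM GFP+ was the reverse, with 20 of the 92 past 2-fold above the other libraries (all genes 10.4%) and 3 below (11%), and none of the 10 members among them. FL GFP- stood alone below in 6 of the 92 (3.79%) and above in 2 (3.62%), and BM GFP- in 1 (2.61%) and 1 (2%), again with no member.

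In the glutathione system 19 of 20 genes passed the filter. None of them was past 2-fold higher in the FL in either fraction (all genes 24.3% in GFP+ and 16.1% in GFP- cells). In GFP+ cells 12 were lower in the FL (all genes 31.5%) and 7 within 2-fold, in GFP- cells 8 (18.1%) and 11. The median log2 differences as deposited were -1.42 and -0.89, beside -0.08 and -0.06 for all genes. *Gpx1* thus stood on the same side as its list. As deposited, *Mgst3*, a microsomal glutathione transferase, was past 2-fold higher in GFP+ cells of both tissues (61.3 against 30.5 FPKM in the FL, 64.0 against 26.5 in the BM). The FL ratio of *Mgst3* was 2.01, at the limit, and each of the 3 rescalings would take it below 2-fold. Equal FPKM totals would do so for the BM ratio, 2.41, as well. Of 11 genes of the Nrf2 axis, 2 were higher and 4 lower in GFP+ cells of the FL (all genes 17.1% and 23.8%). In those of the BM 3 were higher and 0 lower (19.2% and 19%). *Nqo1*, a quinone reductase and Nrf2 target, was higher in both, with 19.9 against 2.80 FPKM in the FL and 26.0 against 11.4 in the BM. Among 6 genes of the alpha-arrestin and Mlx group around *Txnip*, 0 were higher and 1 lower in GFP+ cells of the FL (all genes 17.1% and 23.8%). In those of the BM 1 was higher and 2 lower (19.2% and 19%). *Arrdc4*, a close relative of *Txnip*, was lower in both tissues (listed at 0 against 26.4 FPKM in the FL, 6.40 against 23.3 in the BM). *Txnip* itself did not follow it in the FL (247 against 205 FPKM).

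**Figure D4:**
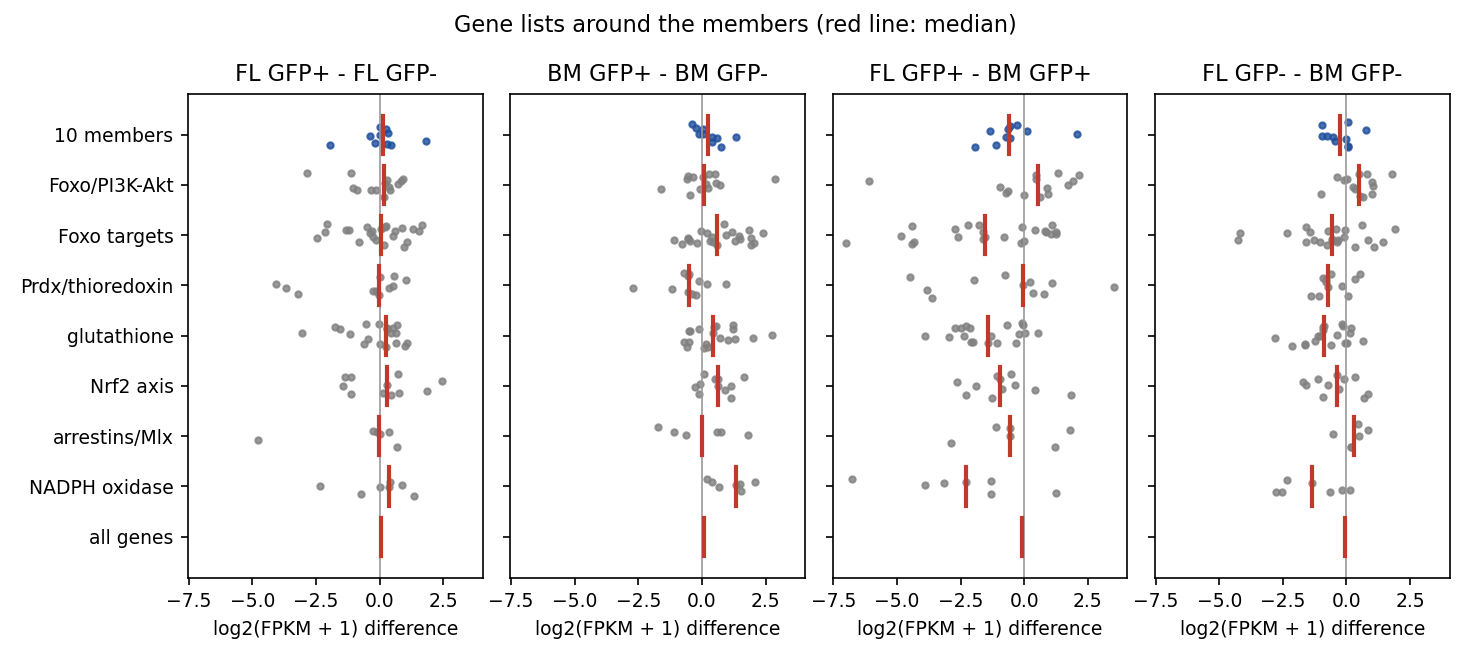
Difference in log2(FPKM + 1) between single libraries for the 10 members (blue) and 7 lists of related genes (grey), 1 point per gene, with the median of each list, and of all 12022 genes tested, as a red line. The medians of the glutathione list lie at -1.42 and -0.89 in the FL against BM panels, and that of the NADPH oxidase list at 1.34 in the BM GFP+ against GFP- panel.

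For the 5 members that spanned more than 1 on the log2 scale, the genes with the nearest profile were found by the Euclidean distance of log2(FPKM + 1), centred on its mean over the 4 libraries, among genes with a mean of at least 10 FPKM. They were *Sugp1* and *Zfp251* for *Foxo1* (distances 0.05 and 0.08), *Il4ra* and *Mef2c* for *Foxo3* (0.08 and 0.13), *D330023K18Rik* and *Lax1* for *Cat* (0.10 and 0.14), *Syf2* and *Tmem258* for *Gpx1* (0.05 and 0.05), and *Rpl32* and *Ndufa2* for *Txn1* (0.06 and 0.06). With 4 points per gene, out of 6994 genes or 1 fewer, these distances are a description of the libraries.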

How the data were processed

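Reads were mapped with TopHat, and the authors computed FPKM with Cufflinks 2.2.1, with corrections for fragment bias and multiply mapped reads, and scaled all libraries together with Cuffnorm's geometric method. The deposited FPKM were used as they stand. Their genome build is NCBI37/mm9 in the study's methods and mm10 in the submitters' processing notes. The files hold gene symbols and no coordinates, so positions are those of GENCODE vM1 on NCBI37/mm9 and promoters those of RefSeq on GRCm38.p6. The files hold no read counts, so no counting error could be given for a single FPKM value.

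The members and gene lists were chosen with earlier results of these data known. Calls were FPKM ratios past 2-fold over the 12022 genes with a mean of at least 1 FPKM. Log2 differences used a pseudocount of 1, which understates the change of low genes. limma 3.58.1 (R 4.3.3, trend, Benjamini-Hochberg adjustment over all 12022 genes, two-sided) was first run on simulated data. These had the same noise for every gene and changes alike in both tissues, so the run does not show how often the fit errs here. Genes beyond the members were named if their mean was at least 5 FPKM and they were past 2-fold the same way in both tissues or both fractions, at most 5 per direction. Copies were searched with minimap2. Protein sequences were not used here. Some genes that the naming rule or the marker lists hold are not reported here.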

Additional observations from a re-analysis of the deposited data

Results flagged for a closer look

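The GFP+ against GFP- difference of *Foxo1* was 1.81 for the FL and -0.22 for the BM on the log2(FPKM + 1) scale, so that BM minus FL was -2.03. It is listed because the signs were opposite and the difference between the tissues was over 1 on the log2 scale. The BM value is within 2-fold and lies between levels under 1 FPKM. With 1 library per group the difference between the tissues was not tested.

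*Cat* is listed by the same rule, with -1.96 in the FL, 0.03 in the BM and 1.99 for BM minus FL, likewise not tested. The *Cat* difference in the BM is 1.02-fold and its sign turned negative, as in the FL, in each of the 3 rescalings, so the listing rests on the FL value. FL GFP+ is the library that sets both values.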

How the results depend on the processing

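Of 160 alternative values of the 40 single ratios of the members, 149 moved by less than 1.5-fold, 11 moved further and 0 of the called ratios reversed, and 20 of the 160 values, all of uncalled ratios, had the opposite sign (the largest of these ratios was 0.57 on the log2 scale as deposited). Rescaling to equal FPKM totals made the members past 2-fold 0 in place of 1 for GFP+ against GFP- in the BM, 2 in place of 4 for FL against BM in GFP+ cells and, like the other 2 rescalings, 1 in place of 0 in GFP- cells. Calls at 1.5-fold and at 4-fold gave 3 and 0 members for GFP+ against GFP- in the BM, 4-fold gave 1 for FL against BM in GFP+ cells, and 1.5-fold gave 4 in GFP- cells. Over all genes, a 4-fold limit gave 2811, 2100, 4196 and 1752 calls in place of 4912, 4593, 6713 and 4112 (GFP in the FL, GFP in the BM, tissue in GFP+, tissue in GFP- cells), a mean of at least 10 FPKM gave 1827, 1738, 3106 and 1643, no filter gave 8836, 9733 and 9415 in all but tissue in GFP+ cells, and a 1.5-fold limit gave 6604 for tissue in GFP- cells. limma called 16 genes for GFP fraction and 313 for tissue, and these became 4 and 143 with a pseudocount of 0.1, 40 and 571 (1 of them a member, *Gpx1*) at a mean of at least 10 FPKM, 0 and 0 without the trend (541 and 1333 at an unadjusted p under 0.05), 4 and 164 without the other factor as a term, and 189 for tissue with no filter. Fewer genes enter the stricter filters; otherwise the cause was not tested. Leaving out a library put the members within 2-fold at 5 to 8. No paired analysis was possible because the labels give no replicate numbers to pair by, beyond the tissue term of the limma fit, which sets the fractions against each other within a tissue. With 1 library per group and no read counts, neither animal spread nor counting error is known.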

Other observations

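The NADPH oxidase list holds the enzyme that makes superoxide in phagocytes, its partners, and the further oxidases *Nox1* and *Nox4*. Of its 8 genes 7 passed the filter, all but *Nox4*. In the BM 4 were past 2-fold higher in GFP+ cells and none lower (all genes 19.2% and 19%), with a median log2 difference of 1.34 beside 0.09 for all genes. In the FL 1, *Nox1*, was higher and 1 lower (17.1% and 23.8%), with a median of 0.35. In GFP+ cells 1, again *Nox1*, was higher and 6 lower in the FL than in the BM (24.3% and 31.5%), and in GFP- cells 0 and 4 (16.1% and 18.1%). *Ncf4* gave 23.6 (GFP+) and 18.3 (GFP-) FPKM for the FL and 363 and 130 for the BM, and *Ncf1* had 24.3, 12.7, 226 and 78.2. Both encode cytosolic subunits of the phagocyte oxidase, and both were ordered over the BM libraries as the summed neutrophil markers were (64056 and 17786 FPKM). Whether these cells account for the difference was not tested.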
